A study of Mus musculus with 12 samples.

Results

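The regeneration course of isotype-treated mice is described here as postoperative day 2 (POD2) against postoperative day 1 (POD1). Its members were taken by their labels: all isotype libraries, 6 of the 12 in the series, 3 at POD2 and 3 at POD1. RNA was sequenced after poly A selection from hepatocytes of male, wild-type BALB/C mice of 8 weeks. The POD2 group received 200 µg of a non-targeting isotype antibody in 100 µl of PBS into the peritoneum, a second dose at surgery 2 days later, and removal of 70% of the liver; cells were taken on day 2 after it. The POD1 group had the same antibody, doses and surgery, with cells taken on day 1. The other 6 libraries, labelled anti-Gr1 at POD2 and POD1, had the same surgery with an antibody against Gr1, an antigen of granulocytes, and enter only the shared fit and 1 comparison at the end. Cells came from collagenase perfusion, a filter and low-speed centrifugation, which enriches hepatocytes and does not sort them. No library without surgery enters, so every change is between these days and none is against a resting liver.

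After removal of most of the liver, hepatocytes leave quiescence in a primed state set by cytokines and immediate early transcription factors. Growth factors acting through receptors such as Met and Egfr then carry them past the G1 restriction point into DNA replication and mitosis. In mice most hepatocytes are known to replicate their DNA in the second day after surgery, while the remnant liver has to keep making plasma proteins, bile and glucose. Non-hepatocyte cells, among them Kupffer cells, stellate cells and sinusoidal endothelium, supply many of the signals and divide later.

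The libraries held 13488905 to 13870352 counts at POD2 and 13189392 to 14434198 at POD1. Replicates 1 and 2 of POD2 differed by little more than counting noise (chi-square per gene 1.68, where 1 is noise alone), while the other pairs of libraries within a day gave 63.8 to 189. A mean ± SD below takes them as a single sample (n = 2 at POD2, n = 3 at POD1), and each count of changed genes is also given with their counts summed. The SE and adjusted p of single genes count the pair as separate samples, unless the pair is said to be summed, and so overstate certainty. With the pair summed the edgeR adjusted p of Cdk1 was 8.03e-05, against 8.15e-06 with separate libraries. That of Hbb-bs was 0.00377, against 0.000476. Replicate 3 of POD2 stood apart: genes of pancreatic acinar cells, which code for digestive enzymes, took 30.4% of its counts, against 8.02% and 7.93% in replicates 1 and 2 of POD2 and 3.83%, 10.7% and 0.0158% at POD1. Its scaling factor was 0.602, with 0.821 and 0.823 in the other POD2 libraries and 1.10 to 1.29 at POD1. The labels do not say whether libraries of a day came from separate animals, so the spread behind the p-values may be technical.

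As a check of the labelled cell type, hepatocyte markers were read in every library. Alb, albumin (ENSMUSG00000029368, GRCm38 chromosome 5, 90460897 to 90476602), stood at 77956, 77881 and 79640.4 CPM at POD2, against 4124, 3545 and 5270.3 CPM at POD1. Hnf4a, a hepatocyte transcription factor, stood at 566, 552 and 499.8 CPM at POD2, against 343, 173 and 367 CPM at POD1. The markers Ttr, Apoa1, Cps1, Trf, Apob and Ahsg were likewise present in all 6 libraries, at 181 CPM or more. Levels are read counts scaled to a common library size (CPM), with sizes adjusted by edgeR's TMM factors.

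Changes between the days were widespread and went both ways. Of 15294 genes tested, 3514 (23.0%) rose and 3580 (23.4%) fell at POD2 relative to POD1 at an edgeR adjusted p under 0.05, 7094 (46.4%) in all. Of these, 1796 rose and 2407 fell by at least 2-fold. The 3 POD2 values lay all above or all below the 3 POD1 values in 9844 genes (64.4%). With the near-identical POD2 pair summed, 2937 of 15782 genes rose (18.6%) and 3006 fell (19%), 37.7% in all; 5877 genes were called in both fits in the same direction, 82.8% of the calls with separate libraries and 98.9% of those with the pair summed. When replicate 3 of POD2 was left out as well, so that 1 sample stood for POD2 and was assumed to vary like the other groups, 2283 genes were called. Scaling mattered for the split: without scaling factors the median log2 fold change of all genes was -0.66, against 0.03 with them, and 978 genes rose while 7497 fell. These percentages are the background against which the count of each list is to be read.

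**Figure D1:**
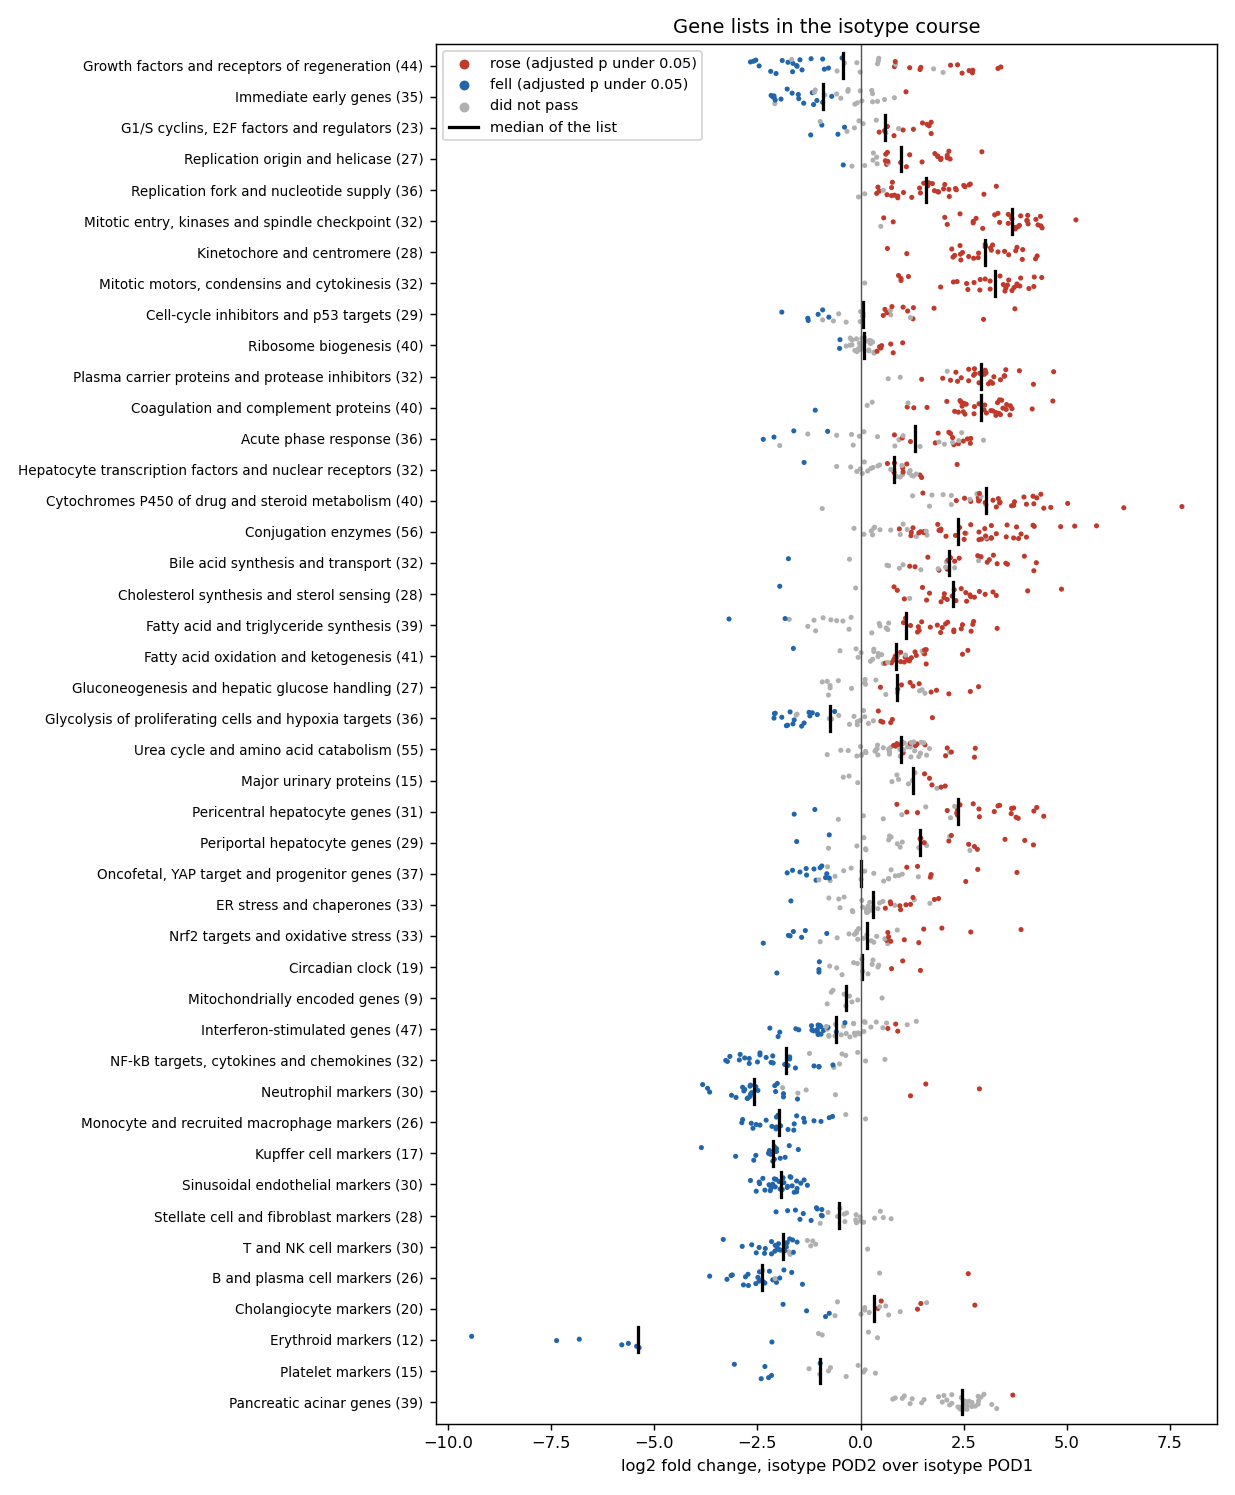
Log2 fold change of POD2 over POD1 (horizontal axis) for every tested member of 44 gene lists (rows, number of tested members in brackets); red points rose, blue points fell, grey points did not pass, and the black bar is the list's median. The mitosis lists have medians of 3.02 to 3.66 and the hepatocyte export lists 2.91 and 2.93, while markers of Kupffer cells and sinusoidal endothelium lie at -2.13 and -1.92.

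Growth factors and their receptors changed in both directions: 29.5% of the list rose and 45.5% fell, against 23.0% and 23.4% of all genes tested. Of 44 measured growth factors and receptors of regeneration, 13 rose, 20 fell and 11 did not pass (10 and 17 with the pair summed, 6 and 25 without scaling factors, 2 and 7 with POD2 replicate 3 left out and the pair summed), with a median log2 fold change of -0.42. Hgf, hepatocyte growth factor, a ligand of stellate and endothelial cells, was at 13.2, 15.6 and 5.42 CPM at POD2, against 50.6, 36.9 and 55.1 CPM at POD1. All POD2 values lay below all POD1 values, and Hgf fell by 2.05 on the log2 scale (edgeR adjusted p = 0.0124). Its receptor Met was at 77.5, 76.3 and 56.9 CPM at POD2, against 17.4, 8.87 and 11.9 CPM at POD1 and rose without overlap (2.46 ± 0.58 SE, edgeR adjusted p = 0.00655). Egfr, the receptor of epidermal growth factor and amphiregulin, was at 641, 635 and 404 CPM at POD2, against 72.5, 61.7 and 123 CPM at POD1 and rose as well (2.71 ± 0.82 SE, edgeR adjusted p = 0.0207). Other receptors and binding proteins that rose were Fgfr4, the receptor of intestinal Fgf15 (2.72), Erbb3 (2.63), Prlr, the prolactin receptor (3.40), Lgr4, an R-spondin receptor (2.18), and Igfbp2 (3.33). Igf1, made by hepatocytes, rose by 1.44 ± 0.31.

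Several ligands and receptors of the list fell. Inhbb, the activin B subunit, stood at 9.24, 9.21 and 5.67 CPM at POD2, against 85.8, 115 and 284 CPM at POD1 (-4.32 ± 0.76 SE, edgeR adjusted p = 0.00126). Bmp2, an endothelial ligand that drives hepcidin, stood at 62.1, 59.6 and 54.0 CPM at POD2, against 318, 295 and 503 CPM at POD1 (-2.67 ± 0.27 SE, edgeR adjusted p = 6.52e-05). In both genes the days did not overlap, and POD1 replicate 3 was the highest library, without which the change of Inhbb was -3.63. The Wnt ligand Wnt2 (-2.46) and the Wnt enhancer Rspo3 (-1.55), both of endothelium in liver, fell, as did Il6 (-2.60), Osm, oncostatin M (-2.54), Tgfb1 (-1.64), Tgfbr2 (-1.76), Il6st, the shared gp130 receptor chain, which hepatocytes express too (-1.90), and Hbegf (-1.65). Markers of endothelium moved in the same direction. All 30 measured sinusoidal endothelial markers fell, and their summed share of counts was 0.427%, 0.418% and 0.237% at POD2, against 1.95%, 1.98% and 2.32% at POD1. In bulk RNA fewer cells of a type and less RNA per cell cannot be told apart, and the part of the marker shift in the ligands was not tested.

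Immediate early genes, transcribed within minutes to hours of a stimulus, fell at POD2 in 16 of 35, rose in 1 and did not pass in 18. The counts were the same with the pair summed, and 6 fell with POD2 replicate 3 left out as well (median -0.92). Klf4, a zinc finger factor, was at 38.5, 42.1 and 24.9 CPM at POD2, against 137, 183 and 155 CPM at POD1, and Klf2, a factor of endothelium, at 169, 167 and 187 CPM at POD2, against 611, 879 and 750.2 CPM at POD1. Neither gene overlapped between the days, and they fell by 2.17 and 2.10 on the log2 scale (edgeR adjusted p = 8.68e-05 and 0.000207). Fos (-1.14), Junb (-0.92), Nr4a1 (-1.66), Dusp1, a MAP kinase phosphatase (-2.10), and Ier3 (-1.93) fell too. Markers of sinusoidal endothelium, Kupffer cells and monocytes were lower in the same libraries, with list medians of -1.92, -2.13 and -1.97, and their part in these falls was not tested. Jun and Myc, priming factors of regeneration, did not pass: Jun stood at 956, 944 and 1123 CPM at POD2, against 894, 1285 and 1019.6 CPM at POD1 (edgeR adjusted p = 0.827), and Myc at 43.1, 40.9 and 66.9 CPM at POD2, against 68.9, 76.2 and 64.9 CPM at POD1 (edgeR adjusted p = 0.160). Both genes overlapped between the days, in Myc through POD2 replicate 3, without which it passed as lower (edgeR adjusted p = 0.0345). The single riser was Gadd45a, a growth arrest and stress gene (1.10).

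**Figure D2:**
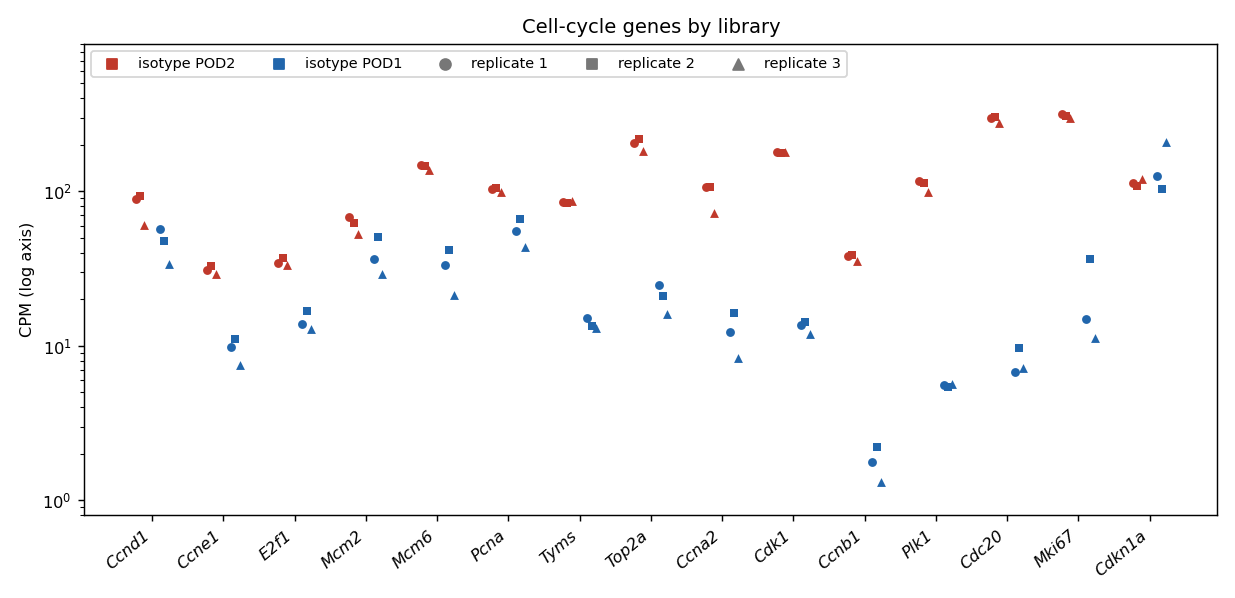
CPM (log axis) of 15 cell-cycle genes in each isotype library, POD2 in red left of POD1 in blue, with circles, squares and triangles for replicates 1, 2 and 3. Cdk1 lies at 178 to 181 CPM at POD2 and 12 to 14.3 CPM at POD1, while the days overlap in Cdkn1a.

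Genes of the G1 to S transition changed in both directions. Of 23 G1/S cyclins, E2F factors and regulators, 11 rose and 4 fell (8 and 3 with the pair summed, 6 and 7 without scaling factors; median 0.58, and -0.12 without scaling factors). Ccne1, cyclin E1, which activates Cdk2 at the start of S phase, was at 31.1, 32.7 and 29.2 CPM at POD2, against 9.82, 11.1 and 7.48 CPM at POD1 (1.71 ± 0.19 SE, edgeR adjusted p = 9.46e-05). E2f1, the activating E2F factor, was at 34.6, 36.9 and 33.4 CPM at POD2, against 13.8, 16.8 and 12.8 CPM at POD1 (1.28 ± 0.15 SE, edgeR adjusted p = 0.000131). Both rose without overlap, together with Cks1b (1.71), Skp2, which marks p27 for degradation (1.5), and the repressor E2f8 (1.66). Ccnd1, cyclin D1, the classical marker of passage through G1, stood at 89.7, 92.8 and 60.6 CPM at POD2, against 57.1, 47.8 and 33.8 CPM at POD1, without overlap. Its call (0.81 ± 0.30 SE, edgeR adjusted p = 0.0447) was lost with the pair summed (edgeR adjusted p = 0.117). Ccne2 did not pass (0.61 ± 0.32 SE, edgeR adjusted p = 0.143), and Ccnd2 (-1.21), Ccnd3 (-0.55) and Rb1, the retinoblastoma protein (-0.94), fell.

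DNA replication genes rose in most cases, by a median of 1.43 on the log2 scale. Over both replication lists 52 of 63 measured genes rose, 1 fell and 10 did not pass (48 and 0 with the pair summed, 36 and 0 with POD2 replicate 3 left out as well). Tyms, thymidylate synthase, stood at 85.9, 84.5 and 86.3 CPM at POD2, against 15.1, 13.4 and 13 CPM at POD1 (2.63 ± 0.16 SE, edgeR adjusted p = 5.03e-06). Rfc5, a subunit of the clamp loader, stood at 57.4, 57.7 and 52.2 CPM at POD2, against 15.6, 14.9 and 15.3 CPM at POD1 (1.87 ± 0.11 SE, edgeR adjusted p = 5.03e-06). In both genes the days were far apart and the libraries of a day close together. Pole, the catalytic subunit of polymerase epsilon, was at 37.2, 37.8 and 29.9 CPM at POD2, against 5.61, 4.02 and 3.53 CPM at POD1 and rose 7.95-fold (2.99 ± 0.25 SE, edgeR adjusted p = 1.99e-05). The ribonucleotide reductase subunit Rrm2 (2.50), Tk1, thymidine kinase (2.66), Fen1 (2.32), the ligase Lig1 (2.14) and the histone chaperone subunit Chaf1b (2.30) rose in the same range.

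The origin and helicase list held 19 of the risers and the 1 fall, with 11 and 3 without scaling factors. Among the 6 subunits of the Mcm2 to Mcm7 ring, Mcm6 (2.17 ± 0.24), Mcm7 (1.95 ± 0.18) and Mcm5 (1.94 ± 0.20) rose most, and Mcm3 (0.60 ± 0.17) and Mcm2 (0.66 ± 0.20) less. Mcm4 did not pass (0.30 ± 0.15 SE, edgeR adjusted p = 0.119), and Mcm2 lost its call with the pair summed (edgeR adjusted p = 0.0573). Mcm2 was at 68.7, 62.8 and 53.2 CPM at POD2, against 36.7, 50.9 and 29.4 CPM at POD1, so that the days did not overlap but came close. The GINS subunit Gins2, a partner of the ring at the fork, was at 33.6, 31.1 and 32.2 CPM at POD2, against 8.31, 7.48 and 6.82 CPM at POD1 (2.10 ± 0.16 SE, edgeR adjusted p = 1.4e-05). Of the origin recognition complex, Orc1 rose (1.11) and Orc5 too (0.63), Orc4 fell (-0.42, a call lost with the pair summed), and Orc2, Orc3 and Orc6 did not pass (-0.21, 0.10 and 0.40). Pcna, the sliding clamp, stood at 104, 105 and 98.7 CPM at POD2, against 55.4, 66.1 and 43.6 CPM at POD1, a rise of 1.87-fold (0.90 ± 0.15 SE, edgeR adjusted p = 0.000773).

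Nearly every measured mitosis gene rose. Over the 3 mitosis lists 90 of 92 measured genes rose, 0 fell, and Cdc25b and Cit did not pass (0.49 and 0.10). The count was 89 with the pair summed and 87 with POD2 replicate 3 left out as well, and the median fold change was 9.78. The POD2 and POD1 values did not overlap in 90 of the 92, against 64.4% of all genes in either direction and 33.0% in this one. Cdk1, the kinase that starts mitosis (ENSMUSG00000019942, GRCm38 chromosome 10, 69335146 to 69352938), stood at 181, 178 and 179.7 CPM at POD2, against 13.7, 14.3 and 12 CPM at POD1, a rise of 13.4-fold (3.75 ± 0.25 SE, edgeR adjusted p = 8.15e-06). Its partner Ccnb1, cyclin B1 (ENSMUSG00000041431, GRCm38 chromosome 13, 100778650 to 100786570), stood at 38.1, 38.9 and 35.4 CPM at POD2, against 1.78, 2.22 and 1.32 CPM at POD1, a rise of 21.1-fold (4.40 ± 0.35 SE, edgeR adjusted p = 1.69e-05). No library of one day came near the other day in either gene. Cdk1 averaged 179.6 ± 0.0547 CPM at POD2 (SD, n = 2) and 13.4 ± 1.19 CPM at POD1 (n = 3). The SD at POD2 is smaller than the gap within the near-identical pair (181 and 178 CPM) and does not measure the spread between samples.

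Regulators of entry and exit, spindle and cytokinesis genes rose side by side. Foxm1, the transcription factor of the G2/M program, was at 89.9, 87.7 and 80.3 CPM at POD2, against 7.5, 5.34 and 5.03 CPM at POD1 (3.85 ± 0.32 SE, edgeR adjusted p = 1.96e-05). Plk1, polo-like kinase 1, was at 116, 113 and 98.6 CPM at POD2, against 5.56, 5.41 and 5.63 CPM at POD1 (4.30 ± 0.25 SE, edgeR adjusted p = 5.03e-06), and Aurka, aurora kinase A of the centrosome, at 126, 121 and 121 CPM at POD2, against 7.34, 8.66 and 6.05 CPM at POD1 (4.06 ± 0.23 SE, edgeR adjusted p = 4.97e-06). The rises were 14.4-fold, 19.7-fold and 16.7-fold, with no overlap between days. Cdc20, the activator of the anaphase-promoting complex, had the third largest rise by the rule for named genes, at 297, 304 and 278 CPM at POD2, against 6.74, 9.70 and 7.18 CPM at POD1 (5.22 ± 0.28 SE, edgeR adjusted p = 4.97e-06). Mki67, the proliferation antigen Ki-67, was at 317, 306 and 297 CPM at POD2, against 14.9, 36.3 and 11.2 CPM at POD1, with POD1 replicate 2 above the other POD1 libraries (3.88 ± 0.45 SE, edgeR adjusted p = 0.00013). Ccna2, cyclin A2 of S and G2 phase, was at 107, 107 and 72.3 CPM at POD2, against 12.3, 16.3 and 8.32 CPM at POD1 (2.96 ± 0.36 SE, edgeR adjusted p = 0.000152).

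The kinetochore list rose as a whole, 28 of 28 in each of the fits with separate libraries and with the pair summed. Cenpm was at 56.1, 57.6 and 76.2 CPM at POD2, against 3.29, 2.84 and 3.59 CPM at POD1 (4.28 ± 0.24 SE, edgeR adjusted p = 4.97e-06), and Cenpf at 49.0, 49.9 and 42.5 CPM at POD2, against 2.00, 2.98 and 2.51 CPM at POD1 (4.24 ± 0.29 SE, edgeR adjusted p = 8.38e-06). Neither overlapped. The Ndc80 complex, which binds microtubules, rose in all 4 subunits: Ndc80 (3.33), Nuf2 (3.49), Spc24 (3.76) and Spc25 (3.17). Among motors and cytokinesis genes, Kif2c, a microtubule depolymerase, was at 50.5, 52.8 and 53 CPM at POD2, against 2.37, 3.12 and 2.99 CPM at POD1 (4.20 ± 0.20 SE, edgeR adjusted p = 4.72e-06). The cytokinesis factors Ect2 (3.79), Anln (2.57), Racgap1 (3.56), Prc1 (3.46) and Kif23 (1.94) rose too, and the citron kinase Cit stayed without a call (0.10 ± 0.25 SE, edgeR adjusted p = 0.764).

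Promoters of these genes are shown because the mitosis and replication genes moved together within each group. Windows of 250 bases before to 50 after the annotated start were taken from RefSeq (GRCm38.p6), 5′ to 3′ on the gene's strand. Capitals mark matches, on either strand, to the cell-cycle homology region (CHR, searched as TTTGAA and TTCGAA), the CCAAT box (CCAAT) and E2F motifs (TTTGGCGC, TTTCCCGC, TTTCGCGC and TTTGCCGC); E2F matches can overlap each other. The first 5 are mitosis or S/G2 genes with large rises, the next 2 are helicase subunits and the last is Tyms, a riser without a match.
Cdc20 chr4:118437294-118437593 (minus strand): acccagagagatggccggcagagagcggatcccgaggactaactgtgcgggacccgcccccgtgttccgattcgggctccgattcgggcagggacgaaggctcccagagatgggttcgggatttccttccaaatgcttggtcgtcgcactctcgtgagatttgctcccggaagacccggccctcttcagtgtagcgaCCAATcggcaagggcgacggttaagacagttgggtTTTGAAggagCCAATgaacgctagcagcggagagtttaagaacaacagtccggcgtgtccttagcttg
Plk1 chr7:122159185-122159484 (plus strand): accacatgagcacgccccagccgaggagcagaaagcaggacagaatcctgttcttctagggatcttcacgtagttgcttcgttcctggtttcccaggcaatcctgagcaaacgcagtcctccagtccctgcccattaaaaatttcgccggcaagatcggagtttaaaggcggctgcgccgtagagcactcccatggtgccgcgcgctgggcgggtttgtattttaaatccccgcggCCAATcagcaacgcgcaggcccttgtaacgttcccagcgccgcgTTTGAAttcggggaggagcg
Cdk1 chr10:69352863-69353162 (minus strand): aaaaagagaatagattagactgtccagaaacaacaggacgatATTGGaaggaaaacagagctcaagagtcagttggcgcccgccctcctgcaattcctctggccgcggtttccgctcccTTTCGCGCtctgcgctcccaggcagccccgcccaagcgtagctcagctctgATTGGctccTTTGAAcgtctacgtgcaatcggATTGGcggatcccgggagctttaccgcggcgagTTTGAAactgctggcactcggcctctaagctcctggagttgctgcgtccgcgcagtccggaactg
Top2a chr11:99024140-99024439 (minus strand): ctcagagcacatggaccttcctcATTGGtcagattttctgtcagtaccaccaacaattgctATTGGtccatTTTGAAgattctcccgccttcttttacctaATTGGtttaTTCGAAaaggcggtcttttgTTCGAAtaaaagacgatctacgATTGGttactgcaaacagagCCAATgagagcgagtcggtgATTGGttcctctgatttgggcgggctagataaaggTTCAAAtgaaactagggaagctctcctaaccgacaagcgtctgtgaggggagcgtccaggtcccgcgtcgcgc
Ccnb1 chr13:100786437-100786736 (minus strand): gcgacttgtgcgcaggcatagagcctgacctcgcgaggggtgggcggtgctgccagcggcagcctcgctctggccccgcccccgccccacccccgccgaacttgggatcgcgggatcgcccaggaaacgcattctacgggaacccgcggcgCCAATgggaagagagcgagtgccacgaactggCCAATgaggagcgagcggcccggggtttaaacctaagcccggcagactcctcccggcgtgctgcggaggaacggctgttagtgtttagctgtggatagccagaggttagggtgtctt
Mcm6 chr1:128359656-128359955 (minus strand): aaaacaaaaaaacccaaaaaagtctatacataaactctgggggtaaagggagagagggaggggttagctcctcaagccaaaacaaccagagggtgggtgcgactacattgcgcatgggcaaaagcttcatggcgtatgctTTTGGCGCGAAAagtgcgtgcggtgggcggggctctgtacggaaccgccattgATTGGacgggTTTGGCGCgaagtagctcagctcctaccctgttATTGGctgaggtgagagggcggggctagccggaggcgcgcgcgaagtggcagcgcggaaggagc
Mcm5 chr8:75109259-75109558 (plus strand): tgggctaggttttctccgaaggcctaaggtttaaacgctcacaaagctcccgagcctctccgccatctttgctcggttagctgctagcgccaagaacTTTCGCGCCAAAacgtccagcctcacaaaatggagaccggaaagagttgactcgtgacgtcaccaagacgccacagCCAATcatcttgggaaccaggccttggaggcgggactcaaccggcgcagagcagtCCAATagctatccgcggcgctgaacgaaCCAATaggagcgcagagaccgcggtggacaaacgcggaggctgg
Tyms chr5:30073576-30073875 (minus strand): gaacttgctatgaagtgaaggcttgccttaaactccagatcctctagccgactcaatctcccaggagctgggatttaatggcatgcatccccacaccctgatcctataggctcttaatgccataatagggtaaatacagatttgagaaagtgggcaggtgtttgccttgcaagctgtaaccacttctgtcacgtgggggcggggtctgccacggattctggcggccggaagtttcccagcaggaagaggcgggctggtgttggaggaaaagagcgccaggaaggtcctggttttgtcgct

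Windows were found for 77 of the 92 mitosis genes, and 66.2% of these held a CHR match, against 19.4% of all 27025 promoter windows. Both a CHR and a CCAAT match stood in 53.2% of them, against 7.70% of all windows. An E2F match stood in 31.4% of the 51 replication windows (of 63 genes), against 2.32% of all windows, and in 11.7% of the mitosis windows. A CCAAT match, with or without the other motifs, was found in 67.5% of mitosis and 58.8% of replication windows, against 37.9% of all. It was not particular to these lists, since 85.0% of the cholesterol synthesis windows held it. The share of the plasma carrier and inhibitor list lay between those of replication and mitosis. That of sinusoidal endothelial markers was lower, at 22.2%. A match describes letters in this window and is not shown to be a binding site. Matches differed between genes that rose. Cdc20, Plk1, Cdk1, Top2a and Aurka hold CHR and CCAAT matches, Ccnb1 holds CCAAT matches without a CHR match, and Kif2c holds a CHR match without a CCAAT match. Mcm6 and Mcm5 hold E2F and CCAAT matches without a CHR match, and Rfc5, Tyms and E2f1 hold none of the motifs in this window. Only the first window listed per gene was read. Those of Kif2c (117178723 to 117179022) and E2f1 (154569377 to 154569676) lie inside the genes. On the minus strand these genes start at 117182639 and 154569892 by the gene coordinates used here. Sequence at those starts was not read, so a missing match says nothing about it.

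Inhibitors of the cycle and p53 targets were split, with 37.9% rising and 20.7% falling, against 23.0% and 23.4% of all genes tested. Of 29, 11 rose, 6 fell and 12 did not pass (10 and 6 with the pair summed; median 0.06). Without scaling factors 3 rose and 14 fell, at a median of -0.61. Cdkn1a, the inhibitor p21, overlapped between the days at 114, 109 and 121 CPM at POD2, against 125, 104 and 208 CPM at POD1 (-0.35 ± 0.32 SE, edgeR adjusted p = 0.398). Cdkn2c, the inhibitor p18 of Cdk4 and Cdk6, stood at 75.7, 77.8 and 61 CPM at POD2, against 9.17, 9.84 and 8.14 CPM at POD1 (2.98 ± 0.21 SE, edgeR adjusted p = 8.38e-06). Gdf15, a secreted stress factor, stood at 109.7, 105 and 89.7 CPM at POD2, against 6.42, 10.2 and 6.23 CPM at POD1 (3.74 ± 0.38 SE, edgeR adjusted p = 6.81e-05). The 2 genes that rose most here had no overlap between days, while Pmaip1, the p53 target Noxa, fell (-1.91), as did Btg1 (-1.28) and Cdkn2a (-1.27). Trp53 and Mdm2 did not pass (0.06 and 0.05). Ribosome biogenesis genes, needed for growth in cell mass, mostly did not pass either. Of 40, 7 rose and 2 fell (6 and 0 with the pair summed, 0 and 25 without scaling factors). The median was 0.08, -0.62 without scaling factors and -0.01 with acinar genes removed before scaling. Rises were 17.5% and falls 5.0% of the list, against 23.0% and 23.4% of all genes tested.

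Plasma proteins made by hepatocytes rose in most cases by edgeR, with far fewer calls by DESeq2. Over the carrier and inhibitor list and the coagulation and complement list, 65 of 72 genes rose, 1 fell and 6 did not pass (57 and 1 with the pair summed), while DESeq2 called 9 of the 32 carriers and inhibitors and 13 of the 40 coagulation and complement genes, and the median rise over all 72 was 7.52-fold. Alb, given above, rose 18.2-fold (4.19 ± 1.09 SE, edgeR adjusted p = 0.00968). Apoa1, the main protein of high-density lipoprotein, was at 13996, 14036 and 15651 CPM at POD2, against 1373, 1411 and 2123 CPM at POD1 (3.15 ± 0.64 SE, edgeR adjusted p = 0.00262). F7, coagulation factor VII, was at 93.9, 99.9 and 103 CPM at POD2, against 10.4, 7.28 and 10.7 CPM at POD1 (3.39 ± 0.58 SE, edgeR adjusted p = 0.00111), and F10, factor X, at 557, 535 and 585 CPM at POD2, against 96.5, 64.3 and 88.1 CPM at POD1 (2.75 ± 0.48 SE, edgeR adjusted p = 0.00122). The 3 POD2 libraries lay above all POD1 libraries in each, with POD1 replicate 3 the highest of its day in Alb and Apoa1. Pros1, protein S, which endothelium also makes, was the 1 gene that fell, at 91.9, 96.3 and 73.2 CPM at POD2, against 173, 194 and 193 CPM at POD1 (-1.10 ± 0.19 SE, edgeR adjusted p = 0.00102).

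Major urinary proteins, pheromone carriers with many near-identical copies, rose in 5 of 15 and fell in 0 (4 and 0 with the pair summed, 0 and 2 without scaling factors; median 1.26). Mup3 averaged 2521 ± 67.9 CPM at POD2 (SD, n = 2) and 647 ± 68.4 CPM at POD1 (n = 3).

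The plasma protein calls rest on few samples, and their number depended on the anti-Gr1 libraries of the shared fit. Alb averaged 78779.5 ± 1217 CPM at POD2 (SD, n = 2) and 4313 ± 878 CPM at POD1 (n = 3). With POD2 replicate 3 left out and the pair summed, 4 of the 72 were called, at a median log2 fold change of 2.91, the value with all libraries. With all 3 POD2 libraries kept, the pair summed and the near-identical anti-Gr1 POD2 pair summed too, 28 rose and 1 fell. With replicate 3 of anti-Gr1 POD2 and of anti-Gr1 POD1, near-identical to each other, left out as well, 66 rose and 1 fell. In a fit of the isotype libraries alone, 31 carriers and inhibitors and 37 coagulation and complement genes rose, and 1 of the latter fell. Both lists together took 20.7%, 20.7% and 15.7% of the counts at POD2, against 4.05%, 3.17% and 5.74% at POD1. Markers of other liver cells, 10 lists joined, took 1.5%, 1.5% and 0.975% at POD2, against 5.45%, 6.65% and 5.76% at POD1. The part of the markers' shift in the rise of the plasma proteins was not tested.

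Many genes of drug and steroid metabolism rose. Of 40 cytochromes P450, 29 rose and 0 fell (23 and 0 with the pair summed; median 3.03). DESeq2 called 14 of them, and 13 rose with the anti-Gr1 POD2 pair summed too. With replicate 3 of anti-Gr1 POD2 and of anti-Gr1 POD1 left out as well, 36 rose. With isotype POD2 replicate 3 left out and the isotype pair summed, the median was 2.96. Cyp1a2, a pericentral enzyme of caffeine clearance, was at 399, 399.9 and 483 CPM at POD2, against 16.7, 19.1 and 23.0 CPM at POD1 (4.44 ± 1.11 SE, edgeR adjusted p = 0.00840). Cyp2r1, a vitamin D 25-hydroxylase, was at 19.6, 21.3 and 20.7 CPM at POD2, against 2.81, 1.46 and 1.74 CPM at POD1 (3.34 ± 0.53 SE, edgeR adjusted p = 0.000634). Cyp2b9 stood at 6.91, 7.89 and 17.7 CPM at POD2, against 0, 0 and 0.120 CPM at POD1 (edgeR adjusted p = 0.000186); it has close paralogs, as have most genes of this list, whose reads may be shared. Of 56 conjugation enzymes, 40 rose and 0 fell (30 and 0 with the pair summed, 4 and 0 with POD2 replicate 3 left out as well, 24 called by DESeq2). Ephx1, microsomal epoxide hydrolase, was at 400.5, 399 and 425 CPM at POD2, against 68.1, 81.7 and 83.0 CPM at POD1 (2.40 ± 0.29 SE, edgeR adjusted p = 0.000144). The carboxylesterases Ces1g (5.72), Ces1f (5.19) and Ces1d (4.85), neighbours and paralogs, were among the 10 largest rises.

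**Figure D3:**
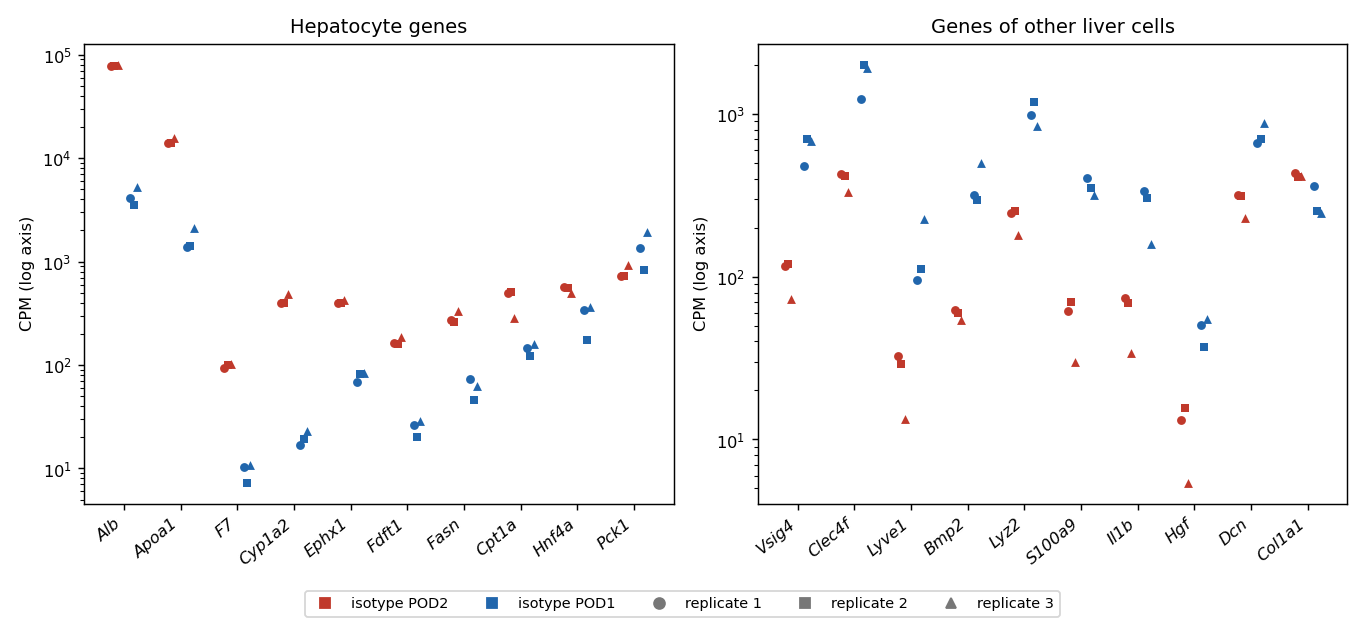
CPM (log axis) in each isotype library, POD2 in red left of POD1 in blue, with circles, squares and triangles for replicates 1, 2 and 3; the left panel holds hepatocyte genes and the right panel genes of other liver cells. Alb lies at 77881 CPM or above at POD2 and at 5270.3 CPM or below at POD1, and Vsig4 lies at 119 CPM or below at POD2 and 481 CPM or above at POD1, whereas Pck1 and Hnf4a did not pass.

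Sterol and fatty acid synthesis rose, and the sterol list kept the highest share of its calls among the metabolic lists when POD2 was reduced to 1 sample. Of 28 genes of cholesterol synthesis and sterol sensing, 25 rose and 1 fell (24 and 1 with the pair summed, 22 and 1 with POD2 replicate 3 left out as well; median 2.24). Fdft1, squalene synthase (ENSMUSG00000021273, GRCm38 chromosome 14, 63145150 to 63179578), was at 162, 159 and 186 CPM at POD2, against 26.2, 20 and 28.6 CPM at POD1 (2.76 ± 0.31 SE, edgeR adjusted p = 9.56e-05). Lss, lanosterol synthase, was at 67.9, 70.5 and 68.3 CPM at POD2, against 15.4, 12.8 and 16.2 CPM at POD1 (2.22 ± 0.20 SE, edgeR adjusted p = 3.04e-05). Pmvk, phosphomevalonate kinase, was at 60.9, 58.5 and 77.8 CPM at POD2, against 15.1, 14.3 and 16.5 CPM at POD1 (2.10 ± 0.16 SE, edgeR adjusted p = 1.44e-05). All were higher in each POD2 library, while Mylip, a ubiquitin ligase of the list, fell (-1.96). Of 39 genes of fatty acid and triglyceride synthesis, 21 rose and 2 fell (18 and 1 with the pair summed, 13 and 9 without scaling factors, 11 and 1 with POD2 replicate 3 left out and the pair summed). Fasn, fatty acid synthase, was at 273, 263 and 336 CPM at POD2, against 72.6, 46.1 and 62.7 CPM at POD1 (2.26 ± 0.35 SE, edgeR adjusted p = 0.000537), and Srebf1, the lipogenic transcription factor, at 292, 293 and 339 CPM at POD2, against 52.4, 61.1 and 53.2 CPM at POD1 (2.47 ± 0.27 SE, edgeR adjusted p = 8.79e-05). The fatty acid transporter Cd36 (-1.83) and the lipid droplet gene Cidec (-3.19, a call lost with the pair summed) fell, and the droplet coat gene Plin2 did not pass (-0.58).

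Bile acid, oxidation, glucose and nitrogen genes each rose in part, with splits that depended on scaling. Of 32 bile acid genes 20 rose and 1 fell (13 and 1 with the pair summed, 10 and 2 without scaling factors, 12 called by DESeq2). Cyp7a1, the rate-limiting enzyme of bile acid synthesis, stood at 46.6, 46.0 and 29.9 CPM at POD2, against 0.108, 1.04 and 5.51 CPM at POD1 (4.20 ± 1.5 SE, edgeR adjusted p = 0.0414), a call lost with the pair summed (edgeR adjusted p = 0.0781). The efflux pump Abcc4 fell, at 7.90, 7.54 and 4.93 CPM at POD2, against 22.7, 20.5 and 25.9 CPM at POD1 (-1.75 ± 0.28 SE, edgeR adjusted p = 0.000664). Of 41 fatty acid oxidation genes, 24 rose and 1 fell (16 and 1 with the pair summed, 1 and 3 without scaling factors); Cpt1a, the gate of mitochondrial uptake, was at 495, 508 and 284 CPM at POD2, against 147, 123 and 158 CPM at POD1 (1.59 ± 0.27 SE, edgeR adjusted p = 0.000999), with POD2 replicate 3 lower than its pair. Of 27 genes of gluconeogenesis and glucose handling, 11 rose and 0 fell (7 and 0 with the pair summed, 1 and 7 without scaling factors), and Pck1 overlapped between the days at 721, 719 and 936 CPM at POD2, against 1343, 825 and 1917 CPM at POD1 (-0.78 ± 0.48 SE, edgeR adjusted p = 0.203). Of 55 genes of the urea cycle and amino acid catabolism, 15 rose and 0 fell (11 and 0 with the pair summed, 2 and 2 without scaling factors). The 15 were 27.3% of the list, near the 23.0% that rose among all genes tested. This nearness held for the shared fit only. With the isotype libraries alone 37 of the list rose and 0 fell, at a median of 0.93, while 3854 of 14524 genes tested rose. Cps1, which starts the urea cycle, rose by 2.76 ± 0.86, while Arg1, which ends it, did not pass (-0.09).

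Zonal genes were read from both ends of the lobule. Of 31 pericentral genes 22 rose and 2 fell, and of 29 periportal genes 11 rose and 2 fell. The counts were 16 and 2, and 8 and 2, with the pair summed, and 15 and 3, and 6 and 4, without scaling factors. DESeq2 called 15 of the pericentral and 10 of the periportal genes. Glul, glutamine synthetase of the cells around the central vein, did not pass, at 379, 369.5 and 349 CPM at POD2, against 414, 468 and 715 CPM at POD1 (-0.54 ± 0.26 SE, edgeR adjusted p = 0.105). Slc1a4, an amino acid carrier, was at 43.9, 43.8 and 55.2 CPM at POD2, against 2.75, 3.95 and 3.77 CPM at POD1 (3.77 ± 0.44 SE, edgeR adjusted p = 0.000139), and Nkd1, a Wnt target, at 21, 20.3 and 16.5 CPM at POD2, against 45.8, 72.9 and 58.0 CPM at POD1 (-1.61 ± 0.20 SE, edgeR adjusted p = 0.000175). The Wnt targets thus differed in direction: Nkd1 fell, Axin2 did not pass (0.07), and Notum (3.65), Rnf43 (2.33) and Znrf3 (1.38) rose. The difference between the 2 zonal lists was not tested.

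Hepatocyte transcription factors passed in 10 of 32 cases. Of 32 factors and nuclear receptors, 9 rose and 1 fell (6 and 1 with the pair summed, 1 and 6 without scaling factors; median 0.82, and 0.10 without scaling factors). Rises made up 28.1% of the list, near the 23.0% of all genes tested, and falls 3.12%, against 23.4%. With the isotype libraries alone 19 of the list rose and 2 fell, while 3854 of 14524 genes tested rose. Creb3l3, a hepatocyte factor of the endoplasmic reticulum, was at 425, 401 and 401 CPM at POD2, against 82.8, 57.0 and 103 CPM at POD1 (2.34 ± 0.59 SE, edgeR adjusted p = 0.00864). Foxa3 rose (1.44), while Hnf4a (0.87), Cebpa (0.04) and Ppara (0.73) did not pass. Gata4, which sinusoidal endothelium expresses as well, fell, at 76.4, 71.9 and 64.6 CPM at POD2, against 176, 214 and 162 CPM at POD1 (-1.37 ± 0.14 SE, edgeR adjusted p = 6.54e-05).

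Acute phase genes were mixed at this interval. Of 36, 14 rose and 4 fell (9 and 3 with the pair summed, 3 and 8 without scaling factors; median 1.33). Lrg1, a secreted glycoprotein, was at 2771, 2613 and 3265 CPM at POD2, against 713, 652 and 984 CPM at POD1 (1.88 ± 0.35 SE, edgeR adjusted p = 0.00170). Hp, haptoglobin (2.37), Cp, ceruloplasmin (2.49), and Itih4 (2.67) rose, whereas Saa1 did not pass, at 1769.7, 1805 and 2217 CPM at POD2, against 618, 537 and 974 CPM at POD1 (1.44 ± 0.64 SE, edgeR adjusted p = 0.0868), nor did Hamp, hepcidin, at 274, 269 and 317 CPM at POD2, against 123, 1.52 and 39.6 CPM at POD1 (2.38 ± 1.04 SE, edgeR adjusted p = 0.0836). Cebpd, a transcription factor of the response, fell, at 39.3, 37.1 and 45.3 CPM at POD2, against 104, 115 and 156 CPM at POD1 (-1.62 ± 0.19 SE, edgeR adjusted p = 0.00013). Socs3, the feedback inhibitor of interleukin 6 signalling, was at 335, 336 and 340.0 CPM at POD2, against 451, 562 and 503 CPM at POD1 and did not pass (-0.58 ± 0.25 SE, edgeR adjusted p = 0.0742).

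Glycolysis of proliferating cells and hypoxia targets had a median of -0.73, with 6 of 36 rising and 16 falling (4 and 13 with the pair summed, 1 and 28 without scaling factors). P4ha1, a collagen prolyl hydroxylase induced by hypoxia, was at 29.8, 35.2 and 24.9 CPM at POD2, against 120.4, 156 and 103 CPM at POD1 (-2.07 ± 0.24 SE, edgeR adjusted p = 0.000129). G6pdx, the first enzyme of the pentose phosphate pathway, was at 24.7, 23.1 and 20 CPM at POD2, against 68.5, 79.3 and 73.6 CPM at POD1 (-1.71 ± 0.19 SE, edgeR adjusted p = 9.99e-05). Both fell without overlap, as did Hk2 (-1.80), Pkm (-1.61) and Slc2a3 (-2.10), which leukocytes also express, while Ldha (0.77) and the lactate carrier Slc16a1 (1.74) rose. Of 37 oncofetal, YAP target and progenitor genes, 7 rose and 12 fell (6 and 11 with the pair summed, 5 and 17 without scaling factors). These were 18.9% and 32.4% of the list, against 23.0% and 23.4% of all genes tested. Afp, alpha-fetoprotein, was at 18.8, 17.3 and 12 CPM at POD2, against 2.75, 1.87 and 3.53 CPM at POD1 (2.55 ± 0.29 SE, edgeR adjusted p = 0.000102). Of 33 endoplasmic reticulum stress genes 10 rose and 1 fell, and of 33 Nrf2 targets 10 rose and 7 fell (9 and 1, and 9 and 7, with the pair summed; 3 and 10, and 3 and 11, without scaling factors). In each list 30.3% rose, against 23.0% of all genes tested, and 3.03% and 21.2% fell, against 23.4%. Gss, glutathione synthetase, rose by 1.97 ± 0.26, and Hmox1, heme oxygenase of macrophages and hepatocytes, fell (-2.36). Of 19 clock genes 3 rose and 4 fell (3 and 3 with the pair summed, 0 and 9 without scaling factors), and 0 of 9 mitochondrially encoded genes passed in either edgeR fit, with 1 at an unadjusted p under 0.05 and 2 called by DESeq2. Clock genes thus rose in 15.8% and fell in 21.1%, against 23.0% and 23.4% of all genes tested.

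Most measured inflammatory transcripts fell. Of 32 NF-kB targets, cytokines and chemokines, 0 rose and 24 fell (0 and 22 with the pair summed, 0 and 3 with POD2 replicate 3 left out as well; median -1.80). Ccl6, a chemokine of macrophages and granulocytes, was at 165, 169 and 87.4 CPM at POD2, against 1302, 1282 and 1224 CPM at POD1 (-3.17 ± 0.48 SE, edgeR adjusted p = 0.000464). Il1a, interleukin 1 alpha, was at 36.2, 38.3 and 23.4 CPM at POD2, against 168, 179 and 206 CPM at POD1 (-2.50 ± 0.33 SE, edgeR adjusted p = 0.000244). The days were apart in both, and Tnf (-2.12), Il1b (-2.17), Cxcl2 (-3.27) and Ccl2 (-2.70) fell with them, while Cxcl1 did not pass (0.12). Among 47 genes induced by interferon 3 rose (6.38%) and 19 fell (40.4%), against 23.0% and 23.4% of all genes tested. The counts were 2 and 18 with the pair summed and 0 and 31 without scaling factors (median -0.59). The smallest p of this list was that of Irf8, a factor of myeloid cells, at 27.1, 29.2 and 20.9 CPM at POD2, against 85.2, 119 and 96.5 CPM at POD1 (-1.96 ± 0.26 SE, edgeR adjusted p = 0.000246). The part of the lower macrophage and endothelial markers in these falls was not tested.

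Markers of other liver cells were lower at POD2 in most lists. Over 10 lists without pancreas, 163 of 229 measured markers fell, 9 rose and 57 did not pass (143 and 6 with the pair summed, 81 and 1 with POD2 replicate 3 left out as well). All 17 Kupffer cell markers fell in both fits: Vsig4, a complement receptor of Kupffer cells (ENSMUSG00000044206, GRCm38 chromosome X, 96247203 to 96293438), was at 117, 119 and 72.8 CPM at POD2, against 481, 704 and 679 CPM at POD1 (-2.59 ± 0.29 SE, edgeR adjusted p = 0.000109). Their summed share of counts was 0.219%, 0.222% and 0.112% at POD2, against 1.04%, 1.34% and 1.36% at POD1. Among sinusoidal endothelial markers Fcgr2b, a scavenging Fc receptor, was at 191, 198 and 155 CPM at POD2, against 850.0, 855 and 834 CPM at POD1 (-2.22 ± 0.24 SE, edgeR adjusted p = 8.52e-05), and Lyve1, a hyaluronan receptor, fell by 2.53 on the log2 scale. Every marker of these 2 lists had counts in every library of both days. In the neutrophil, T and NK cell and platelet lists a POD2 library at 0 occurred for BC100530, Ctsg and Fcnb of neutrophils, for Eomes and Xcl1 of T and NK cells and for Gp6 of platelets.

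Blood-borne cells gave the same direction. Of 26 monocyte and recruited macrophage markers 24 fell and 0 rose (22 and 0 with the pair summed), with Csf1r, the receptor of macrophage growth factor, at 170.3, 161 and 110.2 CPM at POD2, against 565, 618 and 653 CPM at POD1 (-2.05 ± 0.28 SE, edgeR adjusted p = 0.000283). Of 30 T and NK cell markers 23 fell and 0 rose (17 and 0 with the pair summed), and 22 of 26 markers of B cells and plasma cells fell and 1 rose (18 and 1 with the pair summed). The riser was Sdc1, syndecan 1, which hepatocytes also express (2.61). Of 30 neutrophil markers 23 fell and 3 rose (21 and 3 with the pair summed; median -2.59). Retnlg, a resistin-like protein of neutrophils, was at 5.83, 5.17 and 3.08 CPM at POD2, against 46.1, 29.5 and 48.6 CPM at POD1 (-3.13 ± 0.32 SE, edgeR adjusted p = 6.02e-05). The 3 that rose were Prtn3, proteinase 3, at 61, 60.1 and 88.2 CPM at POD2, against 10.8, 8.73 and 8.92 CPM at POD1 (2.88 ± 0.36 SE, edgeR adjusted p = 0.000181), Wfdc21 (1.58) and Lcn2 (1.21), the last an acute phase gene of hepatocytes too; Elane and Mpo, stored in the same granules as Prtn3, gave -1.32 (not passing) and -2.81.

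Red cell genes had the lowest median of the 44 lists. Hbb-bs, an adult beta globin whose paralog Hbb-bt is nearly the same, was at 59.6, 66.8 and 62.2 CPM at POD2, against 1644, 7989.5 and 792 CPM at POD1 (-5.79 ± 0.87 SE, edgeR adjusted p = 0.000476). POD1 replicate 2 held far more globin than the other POD1 libraries, yet each POD1 library lay above each POD2 library, and without that replicate the change of Hbb-bs was -4.27. Slc4a1, the anion exchanger of red cells, was at 0.359, 0.351 and 0.370 CPM at POD2, against 5.83, 116 and 3.59 CPM at POD1 (-6.82 ± 1.47 SE, edgeR adjusted p = 0.00392). Its size rests on POD1 replicate 2, without which it was -3.68, and its call was lost in 4 of 19 alternatives, among them the isotype libraries alone (edgeR adjusted p = 0.0557). Of 12 erythroid markers 8 fell and 0 rose in both fits, with a median of -5.40, or -4.84 with the 1 marker at 0 in every POD2 library set to a floor of 3 counts per library. Platelet markers fell in 6 of 15 and rose in 0 (4 and 0 with the pair summed); Pf4 was at 25.6, 26.5 and 14.4 CPM at POD2, against 154, 118 and 81.7 CPM at POD1 (-2.41 ± 0.49 SE, edgeR adjusted p = 0.00303).

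Stellate cell and bile duct markers passed in part. Of 28 stellate cell and fibroblast markers 11 fell and 0 rose (8 and 0 with the pair summed, 0 and 0 with POD2 replicate 3 left out as well; median -0.53). Dcn, decorin, was at 316, 312 and 230.1 CPM at POD2, against 659.6, 701 and 883 CPM at POD1 (-1.39 ± 0.23 SE, edgeR adjusted p = 0.000825), while Col1a1, collagen I, was at 432, 413 and 416 CPM at POD2, against 362, 253 and 245 CPM at POD1 and did not pass (0.55 ± 0.23 SE, edgeR adjusted p = 0.0674), nor did Acta2, smooth muscle actin of activated cells (0.74). Of 20 cholangiocyte markers 5 rose and 4 fell (2 and 3 with the pair summed, 0 and 6 without scaling factors), and Krt19 did not pass (-0.62). Of 39 pancreatic acinar genes 1 rose, Rbpjl, a call lost with the pair summed (edgeR adjusted p = 0.0585), and the list varied widely within a day: Clps, colipase, stood at 2215, 2122 and 12318 CPM at POD2, against 338, 1492 and 2.04 CPM at POD1.

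The largest changes by the rule for named genes joined these groups. Among the 10 largest rises were Rdh16f2, a retinol dehydrogenase of the Rdh16 family (5.81 ± 1.07), Ces1g, Cdc20, Ces1f, Iqgap3 (4.95 ± 0.32), Nipal1 (4.95 ± 0.58), Ces1d, Cdca3 (4.84 ± 0.39) and Arhgef39 (4.83 ± 0.40). Rdh16f2 was at 75.8, 77.2 and 72.1 CPM at POD2, against 1.19, 1.04 and 1.74 CPM at POD1 (5.81 ± 1.07 SE, edgeR adjusted p = 0.00168). Cdca3, a trigger of mitotic entry, was at 177, 173 and 193 CPM at POD2, against 6.10, 5.34 and 7.54 CPM at POD1 (4.84 ± 0.39 SE, edgeR adjusted p = 1.81e-05). Among the 10 largest falls were Slc4a1, the globins Hbb-bs, Hbb-bt, Hba-a2 and Hba-a1, Cyp26b1, Inhbb, Cd207 and Il1r2. Cyp26b1, which degrades retinoic acid, was at 6.91, 8.24 and 15.2 CPM at POD2, against 115, 138 and 406 CPM at POD1 (-4.45 ± 0.93 SE, edgeR adjusted p = 0.00329), and its change was -3.66 without POD1 replicate 3. Cd207, langerin, was at 1.35, 2.02 and 4.07 CPM at POD2, against 27.7, 49.9 and 27.6 CPM at POD1 (-3.86 ± 0.59 SE, edgeR adjusted p = 0.000591), and Il1r2, a decoy receptor of interleukin 1, at 3.95, 3.95 and 1.36 CPM at POD2, against 51.0, 43.1 and 41.0 CPM at POD1 (-3.83 ± 0.72 SE, edgeR adjusted p = 0.00182). The rule for the largest changes admits only genes whose days do not overlap. Their lack of overlap, also where it is given above for genes such as Hbb-bs and Inhbb, is therefore no further result.

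Ly6g, the transcript of the antigen of the other antibody, was read as a check of those labels. With an antibody against Gr1 on board it was higher, not lower: 24.2 to 54.9 CPM over the 6 libraries so labelled, against 0.246 to 1.98 CPM over the 6 isotype libraries. This is opposite to the depletion that the sample titles name. The transcript alone cannot settle the labels, and the cause of its level was not tested. The directions below rest on the labels, and so does the naming of the course above as that of isotype-treated mice. The course was last set against that of the libraries labelled anti-Gr1 by testing the difference of the day effects (isotype change minus anti-Gr1 change). This difference passed in 2539 of 15294 genes (16.6%), with the isotype change above the other in 7.72% and below it in 8.88% of genes. It passed in 89 of the 92 mitosis genes, all with the larger change in isotype, whose median anti-Gr1 change was 0.25. It passed in 41 of 63 replication genes, in 2 of 72 plasma protein genes upward and 1 downward, and in 27 of 30 sinusoidal endothelial markers downward. Cdk1 differed by 3.51 ± 0.33 on the log2 scale (SE, edgeR adjusted p = 0.000260).

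The count of this comparison depends on near-identical libraries. Replicate 3 of anti-Gr1 POD2 and replicate 3 of anti-Gr1 POD1, which carry different days, differed by a chi-square per gene of 3.73, and replicates 1 and 2 of anti-Gr1 POD2 by 5.69. With the cross-day pair alone left out, 2030 genes differed, 85 of the 92 mitosis genes and 35 of the 63 replication genes among them, and the median difference of the mitosis genes was 2.87, against 3.07 with all libraries. With both pairs within a day summed and the cross-day pair left out, 76 genes differed in all, 33 of the 92 mitosis genes and 4 of the 63 replication genes among them, while the median difference of the mitosis genes was 2.83. In the isotype course itself 88 of the 92 mitosis genes rose under those settings. For the plasma proteins the median difference was 1.90 with all libraries and 0.03 without the cross-day pair. Over the 10 joined lists of other cells, which hold the endothelial markers, 81 of 229 genes differed downward. That count was 55 without the cross-day pair and 45 with the isotype POD2 pair summed. It was 0 with both pairs within a day summed and the cross-day pair left out. Their median difference was -1.36 with all libraries, -1.21 without the cross-day pair and -1.28 with the within-day pairs summed too.

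**Figure D4:**
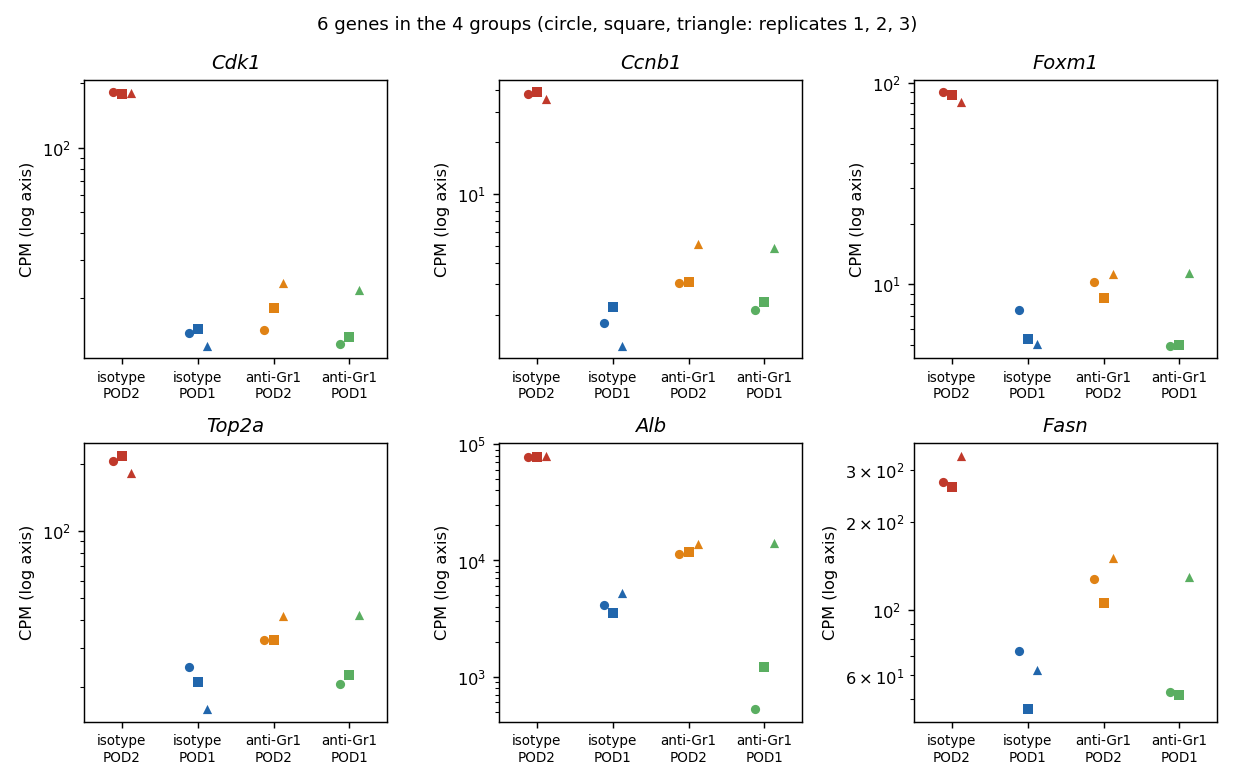
CPM (log axes, 1 per panel) of 6 genes in the 4 groups, from left to right isotype POD2, isotype POD1, anti-Gr1 POD2 and anti-Gr1 POD1, with circles, squares and triangles for replicates 1, 2 and 3. Cdk1, Ccnb1, Foxm1 and Top2a are high in the isotype POD2 libraries alone, and replicate 3 of anti-Gr1 POD1 lies beside replicate 3 of anti-Gr1 POD2 in each panel.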

How the data were processed

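Libraries of poly A RNA from mouse hepatocytes were grouped by their labels into 4 groups of 3, and the 6 isotype libraries are described here. The authors deposited whole-number counts per gene, not normalized, for 18227 genes in 12 columns, each matched to a sample by its title with 0 columns left over. Per the submitters' processing notes cutadapt, STAR, HTSeq and DESeq2 were used with GRCm38; their versions and settings, strandedness and how the listed genes were chosen were not given in the sources used here. Gene coordinates come from GENCODE M21 (GRCm38), which held 18214 of the identifiers.

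The test was edgeR 4.0.16 (R 4.3.3), quasi-likelihood with robust fitting: filterByExpr left 15294 genes, sizes were scaled by TMM, and each of the 4 groups had its own mean, with the spread estimated over the 12 libraries together. Benjamini-Hochberg adjustment ran over the 15294 genes, with a threshold of 0.05. A standard error (SE) is the size of a log2 fold change over the root of its F statistic. CPM values are given as mean ± SD or per library, in replicate order. A scaled value counts a share of RNA, and depth limits precision most for genes of few counts. The fit was tested on simulated counts with independent libraries, unlike the near-identical ones here. It recovered 1 of 50 changes of 1.5-fold, 12 of 50 of 2-fold, 34 of 50 of 4-fold and 45 of 50 of 8-fold, with 4 false calls. A gene that did not pass is therefore not shown to be unchanged. Alternatives were the near-identical pair summed, other scalings, no filter, DESeq2 1.42.0, the isotype libraries alone, both within-day pairs summed, the cross-day pair left out, the replicate block and each library left out; 2 combined settings were chosen after seeing the data.

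The comparison, the 44 gene lists and the 30 fixed genes were chosen with earlier results of these data known. Named genes are the 10 largest changes per direction that were called with and without the pair summed, did not overlap and had a mean log2 CPM of at least 1, without predicted genes and pseudogenes; the members of each list with the lowest p, at most 4; and the fixed genes. Some genes that the rule names are not reported here. Other list members given with values were chosen after their values were seen. Promoter windows were compared with all windows of the RefSeq table, since it held 11292 of the 15294 tested genes.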

Additional observations from a re-analysis of the deposited data

Results flagged for a closer look

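For 9 genes reported here of the fixed set the change of POD2 over POD1 differed between isotype libraries and libraries labelled anti-Gr1, by a test of the difference itself (isotype change minus anti-Gr1 change, log2 scale, edgeR adjusted p in brackets). Among cell-cycle genes the difference was 4.14 for Ccnb1 (0.000535), 3.53 for Mki67 (0.00400), 3.51 for Cdk1 (0.000260), 3.35 for Foxm1 (0.000962), 2.97 for Top2a (0.000903), 2.71 for Ccna2 (0.00609) and 1.08 for Pcna (0.00802). It was 2.30 for Afp (0.00548) and 1.55 for Fasn (0.0471). In these genes the isotype changes were 0.90 to 4.40 and the anti-Gr1 changes -0.18 to 0.72. With the pairs within a day summed and the cross-day pair left out, Ccnb1 (0.0288), Cdk1 (0.0127), Foxm1 (0.0365) and Top2a (0.0439) still passed, and the other 5 did not (0.117 to 0.200), at differences of 1.08 to 3.94 over the 9. Groups of 3 libraries are too small for a test of single outlying libraries.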

How the results depend on the processing

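The count of genes changed between POD2 and POD1 in isotype mice was 7094, and 18 of 19 alternatives stayed within 1.5 times of it. The exception was the pair summed with POD2 replicate 3 left out, at 2283. Leaving out 1 library gave 5669 to 5945 genes. The other settings gave 5943 with the pair summed, 8475 without scaling factors, 7135 with acinar genes removed before scaling, 7156 without a filter, 7197 with DESeq2, 8034 with the isotype libraries alone and 5058 with both pairs within a day summed. Of 197 named genes called, 192 were kept with the pair summed, 161 without scaling factors and 128 with POD2 replicate 3 left out as well. Without scaling 3 named genes turned to a lower value: Noc4l (-0.19), Keap1 (-0.02) and Anxa4 (-0.20). Without scaling, list medians turned for G1/S genes (-0.12), Ribosome biogenesis (-0.62), ER stress and chaperones (-0.40), Nrf2 targets (-0.56) and Cholangiocyte markers (-0.35), and for 3 lists with medians near 0: cell-cycle inhibitors (-0.61), oncofetal genes (-0.70) and clock genes (-0.75). Ribosome biogenesis was at -0.01 with acinar genes removed before scaling, and Nrf2 targets lay between -0.05 (without isotype POD2 replicate 3) and 0.22 (without replicate 2) with 1 library left out.

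The difference of day effects was less stable than the isotype course, with 2539 genes: 2030 with the cross-day pair alone left out, 3345 with DESeq2, 1617 with the pair summed, 877 with both pairs summed, 283 with the pair summed and POD2 replicate 3 left out, 76 with both pairs summed and the cross-day pair left out, and 1420 to 4187 with 1 library left out, the highest without anti-Gr1 POD1 replicate 2. The causes were not tested. A replicate block gave 6732 genes for the isotype course and 2007 for the difference. Deviations of same-numbered isotype libraries from the mean of their day correlated at r = 0.0311, -0.254 and -0.260 over genes. Since POD2 replicates 1 and 2 are near-identical, these values cannot decide whether the numbers pair the samples. With n = 2 at POD2, and 1 of these high in acinar RNA, small changes are the least certain.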
